A study of Mus musculus with 6 samples.

Results

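The cytosolic ribosomal protein genes are the genes for the proteins of the ribosome that translates nuclear mRNA. They were taken as the genes whose only symbol in the platform annotation begins with Rpl or Rps followed by a digit or p, with S6 kinase genes and pseudogenes left out. This gave 46 of 13146 genes, read by 96 of 23750 probe sets that carry 1 symbol, and each gene was represented by its brightest probe set over the 6 arrays. Of the 46 genes, 22 encode core proteins of the large subunit, 19 encode core proteins of the small subunit, 4 encode paralogs of core proteins, and Rps19bp1 encodes a protein that binds Rps19 and is no subunit. A further 32 ribosomal protein symbols occurred only on probe sets that list several symbols, and these genes are not among the 46.

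Expression was measured in 6 samples of Lin-/Sca1-/cKit+ cells of MF1 mice aged 12 to 16 weeks, the marrow fraction of committed myeloid progenitors, each on 1 Affymetrix array from 200 ng of total RNA. The 3 leukemia samples came from the spleens of AE9a leukemia mice, 1 numbered mouse each. These mice carry a truncated AML1-ETO fusion protein in hematopoietic progenitors that had been transduced and then transplanted into wild-type adults after lethal irradiation. The 3 wild-type samples came from the bone marrow of MF1 wild-type mice with no transduction or transplantation stated, and the labels name mice in the plural, so pooled animals are possible. Leukemia and spleen cannot be told apart from each other in this design, and neither can wild-type and bone marrow.

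Ribosomal proteins are made in nearly equal numbers and are assembled with ribosomal RNA in the nucleolus into a small subunit, which reads the mRNA, and a large subunit, which joins amino acids. Their mRNAs are among the most abundant of any dividing cell and begin with a tract of pyrimidines that ties their translation to the mTOR kinase. Blood formation is sensitive to their dosage: loss of a single copy of several of these genes causes Diamond-Blackfan anemia in humans, and loss of a copy of RPS14 contributes to the anemia of the human 5q- syndrome.

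The start sites of 8 of these genes are shown because these genes carry the results below, and because the tract is the feature that the family is known for. Each line gives 25 bases before and 25 after the first base of the transcript in RefSeq (GRCm38.p6), 5′ to 3′ on the gene's own strand. Capitals mark each run of at least 6 pyrimidines, wherever it lies in the window. Those of Rps25, Rpl37 and Rpl4 end before the listed first base, so a marked run is not by itself the tract of the mRNA.
Rps25, chr9:44407689-44407738, plus strand: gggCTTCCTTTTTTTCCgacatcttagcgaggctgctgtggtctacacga
Rpl27a, chr7:109519170-109519219, plus strand: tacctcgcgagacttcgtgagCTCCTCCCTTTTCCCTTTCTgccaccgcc
Rpl37, chr15:5116588-5116637, plus strand: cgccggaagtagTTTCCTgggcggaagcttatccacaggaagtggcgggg
Rps6, chr4:86857343-86857392, minus strand: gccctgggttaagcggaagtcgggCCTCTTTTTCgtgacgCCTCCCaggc
Rpl4, chr9:64173362-64173411, plus strand: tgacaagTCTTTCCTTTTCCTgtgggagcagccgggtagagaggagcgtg
Rplp2, chr7:141447626-141447675, plus strand: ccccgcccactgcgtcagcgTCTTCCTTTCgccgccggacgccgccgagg
Rps9, chr7:3704016-3704065, plus strand: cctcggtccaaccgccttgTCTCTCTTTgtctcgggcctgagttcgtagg
Rps3, chr7:99483685-99483734, minus strand: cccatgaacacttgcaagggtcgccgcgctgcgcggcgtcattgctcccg

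RefSeq lists a start for 41 of the 46 genes, 6 of them with several starts, of which the first listed was used. A pyrimidine run of at least 6 bases lay anywhere within this window, before, across or after the start, in 28 of 41 genes (68.3%). The share was 43.9% for the first starts of all 27025 listed genes. Rps3 has none in the printed window. The letters CCGGAAG, on either strand, the core of binding sites of ETS family factors, occurred within 250 bases before to 50 after the start in 20 of 41 genes (48.8%), against 9.12% of all. AAGATGGC, the core of the YY1 site, occurred in 3 of 41 (7.32%, against 2.88%), and TATAAA in 5 of 41 (12.2%, against 14.2%). These are matches of letters only. The genes that rose and those that fell both include starts with a long pyrimidine run, as Rpl27a and Rplp2 show.

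One leukemia library, replicate 1, differed from its fellows. Its estimated array weight was 0.191, where the remaining 5 arrays had 0.831 to 2.82, and it was the only leukemia array whose fluidics run also held wild-type arrays. A fluidics run here means the arrays that share a hybridization date entry in their run records. The 3' minus 5' difference of the Gapdh control probe sets, a sign of RNA quality, was 0.306, 0.077 and 0.0064 log2 on leukemia arrays 1 to 3, a mean of 0.13 ± 0.16 in leukemia and -0.10 ± 0.040 in wild-type (SD, n = 3 each). Its part in the ribosomal values was not tested. Kit, the receptor that defines the sort, was at 9.64 ± 0.25 log2 in leukemia and at 10.39 ± 0.043 in wild-type (SD, n = 3 each). Cd34 differed more, at 7.51 ± 0.98 in leukemia and 11.11 ± 0.22 in wild-type (limma adjusted p = 9.25e-04). Fcgr3 was at 8.97 ± 1.30 and 8.19 ± 0.23, and did not pass. Of markers of other cells, 5 of 7 tested erythroid genes were higher in leukemia (71.4%, against 16.9% of all tested genes), led by Alas2 (14.6-fold) and Slc4a1 (8.95-fold). Alas2, Slc4a1 and Epb42 were dim in wild-type and met the level needed for testing through leukemia, which favours a rise. Klf1 and Ermap did not pass, at 11.02 and 11.62 log2 in leukemia against 11.47 and 11.51 in wild-type. These 2 bright genes make up most of the summed erythroid intensity, which was 6084 to 9201 in leukemia against 4342 to 7501 in wild-type. Of 5 tested macrophage genes 4 were lower, with a sum of 146.6 to 192.8 against 1607 to 2603. The wild-type sum came mostly from Csf1r, at 10.61 log2 in wild-type and 4.34 in leukemia. The 5 measured genes of mature neutrophils were too dim to test, with a sum of 106.5 to 113.4 against 146.0 to 658.3. The sum for 3 measured T and NK cell genes was 199.9 to 236.7 against 2171 to 2771. It came mostly from Nkg7 (11.20 log2 in wild-type), with Cd8a and Klrd1 at 3.77 and 3.91 there. For 2 B cell genes the sum was 60.7 to 226.7 against 179.4 to 243.4. For 5 stromal and endothelial genes it was 55.9 to 69.4 against 357.2 to 416.2. Most of that wild-type sum was Pecam1 (8.31 log2), and Cdh5, Col1a1, Col1a2 and Col3a1 were too dim to test. Hba-a1 and Hbb-b1 had no probe set with a single symbol. The part of these differences in the ribosomal values was not tested, and in bulk samples fewer cells of a type and less RNA per cell cannot be told apart.

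Most ribosomal protein genes, the 34 with the brightest probe sets above all, differed little between the leukemia cells and wild-type progenitors. None passed the test with a change of 2-fold or more, whereas 19.0% of the 9715 genes tested did. Of the 45 members tested, 2 rose, Rps25 and Rpl27a, and 8 fell, led by Rpl37 and Rps6 (limma, Benjamini-Hochberg adjusted p under 0.05 over all tested genes). That is 10 of 45, against 42.1% of all tested genes, with 16.9% higher and 25.2% lower. Rps25, Rpl27a, Rpl37 and Rps6 were each read by a probe set averaging under 12 log2, and their changes are those of these probe sets. The median change of the members (log2, leukemia minus wild-type) was -0.044, against -0.089 over all tested genes. With the arrays centred on their medians, the members' median was 0.035 and 1 gene in place of 8 was lower, so the sign of the median depended on the centring. The middle 50% of members lay between -0.12 and 0.00075, a width of 0.117 against 0.792 for all tested genes. Leukemia and wild-type values were fully separate in 20 of the 45, against 59.2% of all tested genes. Rpl39l, the remaining member, was at the 5.27th to 21.3th percentile of the 6 arrays and was not tested. Without leukemia replicate 1 the same 10 genes passed, while without any 1 of the wild-type arrays 2 rose and 2 fell.

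**Figure D1:**
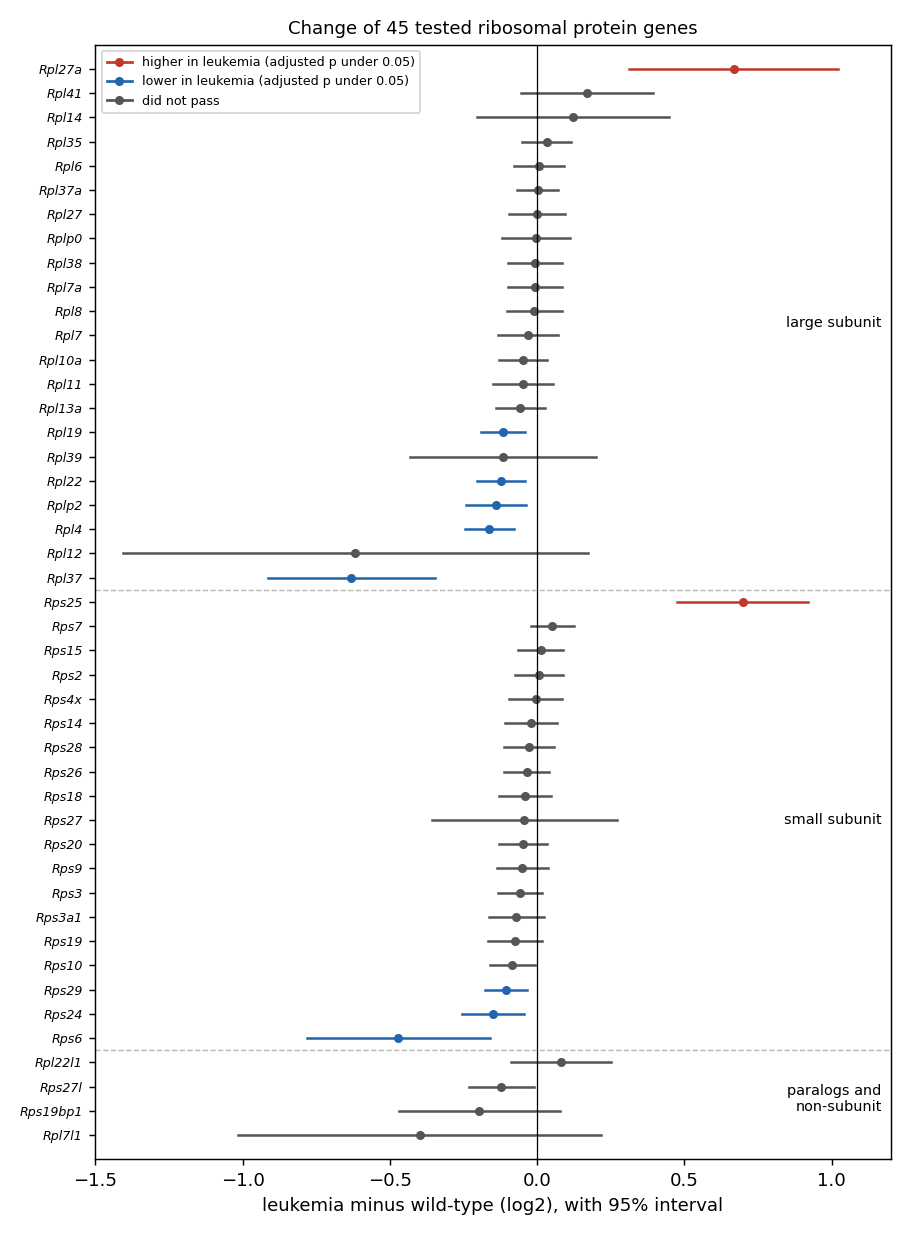
Change of each of the 45 tested genes (horizontal axis, log2, leukemia minus wild-type), with the 95% interval of the limma fit (line), by subunit. Most points lie within 0.25 of 0 with short intervals, Rps25 and Rpl27a lie to the right, and Rpl37, Rpl12 and Rps6 lie farthest to the left, Rpl12 with an interval that spans 0.

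Replicates lay close together for most members. The 95% interval of the change lay within 0.25 of 0 for 32 of 45 members, against 2.67% of all tested genes, a bound chosen after the values had been seen. All 32 were among the 34 members at 12 log2 or more, and the intervals describe those bright probe sets. The median SD over replicates was 0.047 in leukemia and 0.025 in wild-type among the members, against 0.221 and 0.112 among all tested genes. The leukemia replicates were the more spread of the groups in 35 of 45 members.

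This steadiness went with a very high level. On every array 34 of the 45 tested members lay in the top 1% of all probe sets, and the median member lay at the 99.6th to 99.7th percentile. Each member stands here by its brightest probe set, ranked against all probe sets, so that choice enters the level. Of the 89 tested member probe sets, 59 were at 12 log2 or more and 7 were under 8. Rpl41, the gene of the smallest ribosomal protein, had the brightest member probe set, at 14.20, 13.84 and 13.86 log2 on leukemia arrays 1 to 3 and at 13.77, 13.85 and 13.78 on wild-type arrays 1 to 3. The groups overlapped for Rpl41 and its change of 0.17 did not pass (limma adjusted p = 0.187), and was 0.052 without leukemia replicate 1. With a block for the fluidics run, which sets that array alone against wild-type, it was 0.40 (adjusted p = 8.78e-04, limma). On leukemia replicate 1 its value was the highest of the whole array. At the other end Rpl39l, a paralog known for its expression in testis, was at 3.04, 4.04 and 3.18 log2 in leukemia and at 3.18, 2.94 and 3.00 in wild-type, a level at which no change could be read.

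Other bright genes give a setting for these values. Of the tested genes with a wild-type mean of at least 12 log2, 34 were members and 131 were not. Of the 34 members 6 passed, all lower, with a median absolute change of 0.048. Of the 131 others 66 passed, 12 higher and 54 lower, with a median absolute change of 0.185 and changes from -9.31 to 1.04. These genes were chosen on their wild-type level, which favours falls, so the counts by direction and the range depend on that choice. In the fit over probe sets described below, other probe sets were also chosen on the mean over 6 arrays. At 12 log2 or more, 19 of those were higher and 36 lower. Their changes ran from -1.40 to 1.04, with a median absolute change of 0.178. Over the 45 tested members the size of the change went with the level at a Pearson's r of -0.61 and a Spearman's rho of -0.38, across genes that share the same 6 arrays. The 11 members under 12 log2 spread from -0.63 to 0.70 and held 4 of the 10 genes past the threshold. That is 36.4% of the 11, against 42.1% of all tested genes, and their median absolute change of 0.399 was the same as that of all tested genes to 3 digits. Whether bright probe sets respond less than in proportion on these arrays was not tested.

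**Figure D2:**
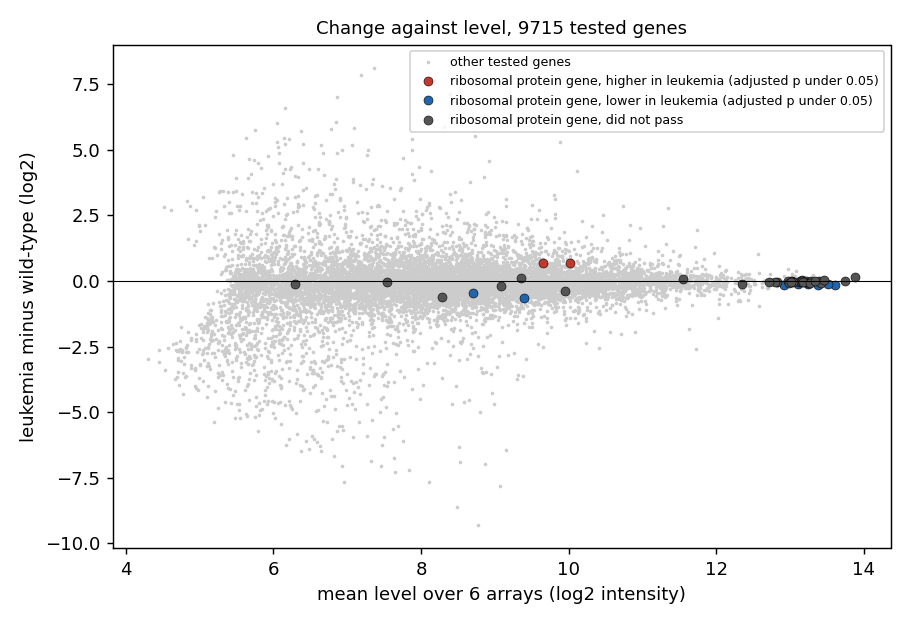
Change (vertical axis, log2, leukemia minus wild-type) against the mean log2 intensity over 6 arrays (horizontal axis) for the 9715 tested genes, with the 45 ribosomal protein genes in colour. The 34 members at 12 log2 or more lie between -0.16 and 0.17, and the 11 dimmer members spread from -0.63 to 0.70 within a grey cloud that reaches from -9.31 to 8.14.

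Both members that rose were mid-level probe sets. Rps25, a protein of the small-subunit head needed for initiation at some internal ribosome entry sites, was at 10.51, 10.25 and 10.33 log2 in leukemia, against 9.71, 9.63 and 9.65 in wild-type. Every leukemia array lay above every wild-type array, and the change was 0.70 ± 0.09 (SE), a 1.62-fold rise (limma adjusted p = 0.00133). It passed in each of the 18 alternatives in which it was refitted. Rpl27a, a large-subunit protein whose mutation causes ataxia and pigment changes in mice, was at 9.92, 9.97 and 10.06 log2 in leukemia, against 9.0, 9.55 and 9.39 in wild-type. The groups did not overlap, with wild-type replicate 1 the lowest, and the change was 0.67 ± 0.15 (SE), a 1.59-fold rise (limma adjusted p = 0.0117). A block for the fluidics run left a change of 0.60 and ended the call (limma adjusted p = 0.0505). Each gene has 1 probe set of its own, and probe sets shared with other symbols are described further on.

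The largest falls were of a similar size. Rpl37, a zinc-binding protein of the large subunit, was at 9.17, 8.94 and 9.13 log2 in leukemia, against 9.63, 9.62 and 9.89 in wild-type. All leukemia values lay below all wild-type values, by 0.63 ± 0.12 (SE; limma adjusted p = 0.00580), and the call was kept in all 17 refits that included it. The refit without shared-probe suffixes left Rpl37 out, since its only probe set carries such a suffix. Rps6, the small-subunit protein that S6 kinases phosphorylate when mTOR is active, was at 8.59, 8.59 and 8.24 log2 in leukemia, against 8.92, 8.93 and 8.98 in wild-type. The groups did not overlap and the fall was 0.47 ± 0.13 (SE; limma adjusted p = 0.0266), with leukemia replicate 3 the lowest. That call was lost without any 1 of the wild-type arrays (adjusted p = 0.0786 to 0.0983, limma), without leukemia replicate 3 (0.0533), on centring (0.0673), with the replicate block (0.0599) and with a block for the fluidics run (0.103).

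The other 6 falls were small and came from the brightest part of the array. Rpl4, which lines the tunnel through which the new protein leaves, was at 13.28, 13.26 and 13.35 log2 in leukemia, against 13.47, 13.44 and 13.46 in wild-type. It fell by 0.16 (limma adjusted p = 0.0101), a 1.12-fold difference, and kept its call in 16 of 18 refits. Rps24, a Diamond-Blackfan anemia gene in humans, was at 12.90, 12.77 and 12.86 log2 in leukemia, against 12.96, 13.00 and 13.01 in wild-type, and fell by 0.15 (limma adjusted p = 0.0324). Rplp2, an acidic protein of the stalk that recruits elongation factors, was at 13.56, 13.46 and 13.60 log2 in leukemia, against 13.69, 13.70 and 13.65 in wild-type, and fell by 0.14 (limma adjusted p = 0.0366). Rpl22, which is deleted in part of human T-cell leukemias and is dispensable for most tissues of the mouse, fell by 0.12 (limma adjusted p = 0.0281). Rpl19, which takes part in a bridge between the subunits, fell by 0.12 (adjusted p = 0.0229), and Rps29, another Diamond-Blackfan anemia gene, fell by 0.11 (adjusted p = 0.0279). In each of the 6 the groups did not overlap, at falls of 0.11 to 0.16. Centring moved the median of all tested genes by 0.079, and on centred arrays the 6 were at -0.084 to -0.027 with none past the threshold, and apart from Rpl4 each kept its call in 7 to 9 of 17 or 18 refits. The refit without shared-probe suffixes left out Rps29 and read Rps24 by a dimmer probe set, at -3.11.

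**Figure D3:**
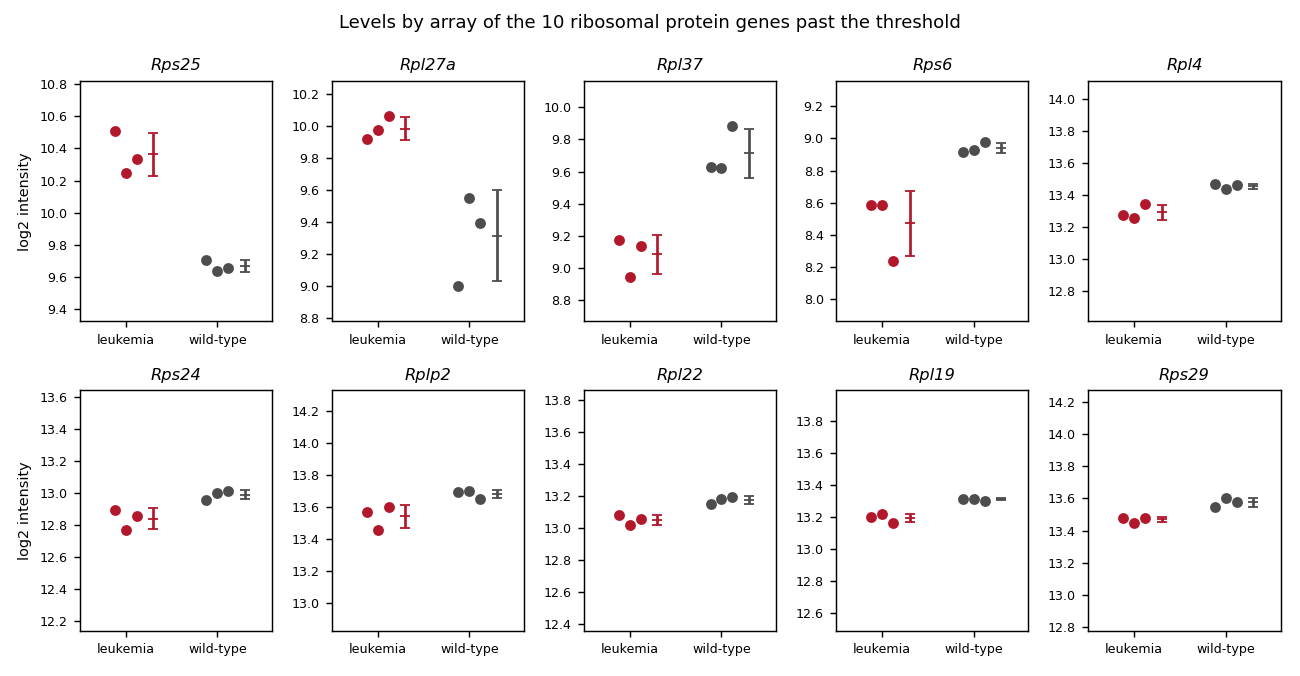
Log2 intensity on each array for the 10 ribosomal protein genes past the threshold, leukemia left and wild-type right, with the mean and SD (n = 3 each) beside the points; every panel spans 1.5 log2. Rps25 and Rpl27a are higher in leukemia, Rpl37 and Rps6 are lower by a similar distance, and the other 6 panels show groups that are separate but close.

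No gene of the 5S particle or of the mRNA exit side passed, and of the 3 measured genes of the stalk and its base only Rplp2 did. Rplp0, the base of the stalk and a common normalization gene, was at 12.99, 12.91 and 13.02 log2 in leukemia, against 12.92, 12.97 and 13.04 in wild-type. The groups overlapped and the change was -0.0032, with a 95% interval from -0.12 to 0.11 (limma adjusted p = 0.962). Rpl12, which binds beside the stalk, was at 7.18, 8.20 and 8.56 log2 in leukemia, against 8.68, 8.52 and 8.58 in wild-type. Its difference of -0.62 (limma adjusted p = 0.175) came mostly from leukemia replicate 1, and without that array it was -0.22 (adjusted p = 0.231, limma). In the fit with a block for the fluidics run, where the change is that of leukemia replicate 1 alone against wild-type, Rpl12 was at -1.42 (adjusted p = 0.00136, limma). Rpl11, which with Rpl5 and 5S ribosomal RNA can bind Mdm2 and stabilise p53, changed by -0.048 with a 95% interval from -0.15 to 0.054 (limma adjusted p = 0.399). Rpl5 itself had no probe set with a single symbol. On the side of the small subunit where mRNA leaves, Rps14, Rps26 and Rps28 changed by -0.021, -0.036 and -0.028, none of which passed. The lowest of their interval bounds was -0.11, for Rps26.

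Among 10 tested Diamond-Blackfan anemia genes 2 fell, Rps24 and Rps29, and none rose, with a median of -0.046. That is 20.0% lower, against 25.2% of all tested genes. Rps19, the member most often mutated in that anemia, was at 12.95, 12.95 and 12.96 log2 in leukemia, against 13.00, 12.99 and 13.09 in wild-type. The groups did not overlap, but the change of -0.074 did not pass (limma adjusted p = 0.165). The 22 tested large-subunit genes had a median of -0.021, with 1 higher and 5 lower. The 19 small-subunit genes had a median of -0.044, with 1 higher and 3 lower. The shares past the threshold were 27.3% and 21.1%, both under the 42.1% of all tested genes.

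No pair of a paralog and its core gene passed a test, which with 3 against 3 arrays cannot go below 0.1. Rpl22l1, the paralog of Rpl22, was at 11.71, 11.57 and 11.48 log2 in leukemia, against 11.51, 11.47 and 11.54 in wild-type. The groups overlapped and its change of 0.081 did not pass (limma adjusted p = 0.390), though it was 0.21 with the block for the fluidics run (adjusted p = 0.0403, limma). The log2 ratio of Rpl22l1 to Rpl22 was 0.20 higher in leukemia, without overlap (exact permutation p = 0.1, two-sided, the smallest that 3 against 3 allows, 0.4 after adjustment over 4 pairs). Rps27l, which is induced by p53 in human cells, was at 12.31, 12.26 and 12.30 log2 in leukemia, against 12.44, 12.35 and 12.45 in wild-type. The groups did not overlap, but its change of -0.12 did not pass (limma adjusted p = 0.0729), and its ratio to Rps27 differed by -0.079 (exact permutation p = 0.4, 0.5 adjusted). Rpl7l1, a factor of large-subunit assembly, was at 9.10, 10.06 and 10.08 log2 in leukemia, against 10.13, 10.06 and 10.24 in wild-type. Leukemia replicate 1 alone was low, and the ratio to Rpl7 differed by -0.37 (exact permutation p = 0.5), or by -0.0065 without that array. With a block for the fluidics run, again leukemia replicate 1 alone against wild-type, Rpl7l1 itself was at -1.05 (adjusted p = 5.95e-04, limma). The ratio of Rpl39l to Rpl39 differed by 0.50 (exact permutation p = 0.2, 0.4 adjusted), with Rpl39l dim throughout. Rps19bp1, the member that is no subunit, was at 8.83, 9.04 and 9.08 log2 in leukemia, against 9.24, 9.07 and 9.23 in wild-type, a change of -0.20 that did not pass (limma adjusted p = 0.208). The block for the fluidics run gave -0.35 (adjusted p = 0.0428, limma).

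The same genes also have dimmer probe sets, some of which differed more between the groups. In a fit over all 16327 tested probe sets with 1 symbol, 21 of 89 tested probe sets of the members passed, 4 higher and 17 lower, against 39.1% of all probe sets. The 59 at 12 log2 or more changed by -0.36 to 0.17, with 20.3% past the threshold, against 34.8% of the 23 from 8 to 12 log2 and 14.3% of the 7 below. The median absolute change of the member probe sets was 0.048, 0.219 and 0.194 in these bands from bright to dim. All other probe sets also differed more at lower levels, with medians of 0.178, 0.320 and 0.510. Rps24 had 5 tested probe sets, and the 4 bright ones fell by 0.15 to 0.36. These 4 all carry a suffix for probes shared with other sequences, and the fifth does not. The fifth was at 4.36, 4.79 and 5.37 log2 in leukemia, against 8.08, 8.11 and 7.66 in wild-type, a fall of 3.11 (8.65-fold; limma adjusted p = 2.33e-04), and it stayed between -3.38 and -2.87 with any 1 array left out. Its leukemia values were dim, and it met the level needed for testing through the wild-type arrays, which favours a fall. The size of the fall is therefore uncertain, and leaving out arrays does not test this. The sources used here do not say which transcript of Rps24 this probe set reads. Rpl22 showed a gradient over its 3 probe sets. They fell by 0.12, 0.25 and 1.00 with levels of 13.11, 11.87 and 9.64 log2. The dimmest was at 8.89, 9.23 and 9.31 in leukemia, against 10.12, 10.15 and 10.15 in wild-type (limma adjusted p = 0.00111). All 3 passed and pointed the same way.

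Rps3, a small-subunit protein at the mRNA entry, had a bright probe set with a change of -0.058 that did not pass (limma adjusted p = 0.180). Its second was at 10.02, 9.77 and 9.76 log2 in leukemia, against 9.17, 9.01 and 9.24 in wild-type, a rise of 0.71 (limma adjusted p = 0.00362). Both probe sets carry the symbol of the same gene, and the sources used here do not say which transcript each of them reads. Rpl13a, which also acts outside the ribosome in interferon-treated human cells, had 4 probe sets. The 2 brightest did not pass, and the others fell by 0.25 and 0.35 (limma adjusted p = 0.0118 and 0.00808). Rps9 had a dim probe set at 6.0, 7.83 and 7.86 log2 in leukemia, against 8.37, 8.30 and 8.32 in wild-type. Its difference of -1.10 did not pass (limma adjusted p = 0.110), and without leukemia replicate 1, the low array, it was -0.48 and passed (adjusted p = 0.00930). In none of the 20 genes with at least 2 tested probe sets did they pass in opposite directions, while in 8 they differed in sign.

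**Figure D4:**
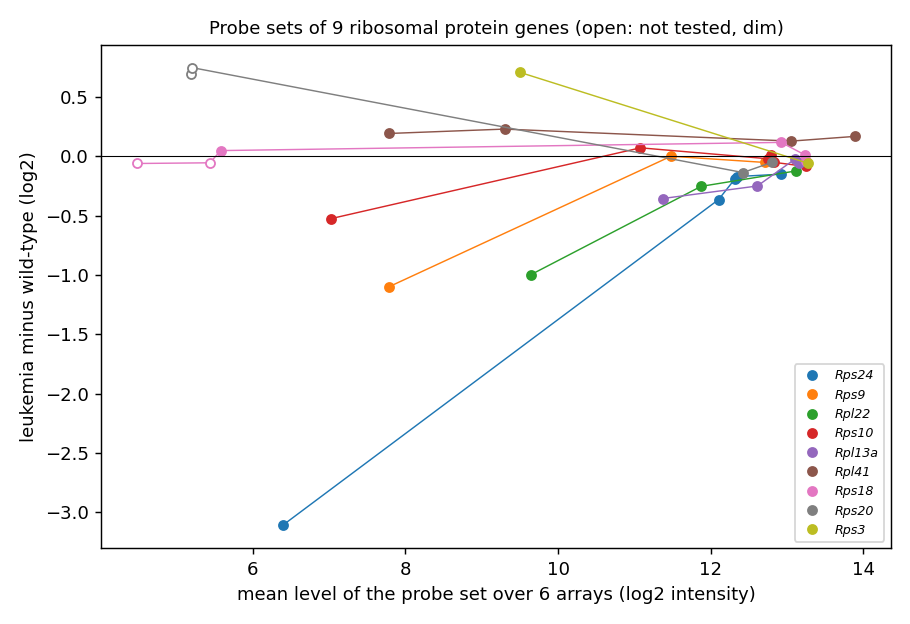
Difference (vertical axis, log2, leukemia minus wild-type) against the mean log2 intensity (horizontal axis) for each probe set of 9 ribosomal protein genes, with lines joining probe sets of 1 gene and open points for probe sets too dim to test. Near 13 log2 the genes lie close to 0, and they fan out at lower levels, down to -3.11 for Rps24 and up to 0.71 for Rps3.

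A further 106 probe sets list several symbols with a ribosomal protein symbol among them, and these were not assigned to a gene. Their median difference was -0.010, and the 78 of them at 12 log2 or more ran from -0.27 to 0.20. For 8 of the 11 members under 12 log2, such a shared probe set was brighter than the member's own. The brightest of these averaged 12.8 to 13.95 log2 and differed by -0.25 to 0.13, against -0.63 to 0.70 for the own probe sets of the 11. The 11 include Rps25, Rpl27a, Rpl37 and Rps6, and these counts do not tell which of those are among the 8.

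Of the ribosome's proteins that the name rule leaves out 2 were measured. Rpsa changed by 0.056 and Fau by 0.041, neither of which passed. Among the factors that work with the ribosome, 31 initiation factors held 1 that rose and 6 that fell, with a median of -0.087 and 22.6% past the threshold, against 42.1% of all tested genes. Eif3e, a subunit of the scaffold that binds the small subunit, rose by 0.26 (limma adjusted p = 0.0111), while Eif4b, a helper of the cap-bound helicase, fell by 0.70 (adjusted p = 1.43e-04) and the helicase gene Eif4a2 fell by 0.46. Of 8 elongation and termination factors 5 fell (62.5%, against 25.2% of all tested genes), with a median of -0.26. The release factor gene Gspt1 fell by 0.97 (limma adjusted p = 0.00400), and Eef1b2, an exchange factor of elongation, by 0.31. Eef1a1, which brings aminoacyl-tRNA to the ribosome, changed by -0.059 and did not pass. Of 14 other mRNAs known for the pyrimidine tract 1 rose and 5 fell, with a median of -0.076 and 42.9% past the threshold, close to the 42.1% of all tested genes.

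Chaperones hold single ribosomal proteins until assembly. Of 7 of them 3 fell and none rose (42.9% past the threshold, against 42.1% of all tested genes), with a median of -0.285. Grwd1, whose yeast counterpart is the chaperone of Rpl3, fell by 1.01 ± 0.29 (SE; limma adjusted p = 0.0280), and Prmt3, a methyltransferase that binds Rps2, fell by 0.53 (adjusted p = 0.00990). Of 11 genes from mTOR to S6 kinase 4 fell and none rose (36.4%, against 42.1% of all tested genes past the threshold), with a median of -0.39, against the median of -0.089 over all tested genes. They were led by Akt1s1 and Deptor, both inhibitors of mTOR, which fell by 1.5 (limma adjusted p = 9.13e-04) and 0.96 (adjusted p = 0.00407). The 76 mitochondrial ribosomal protein genes, all tested, held 4 that rose and 12 that fell, with a median of -0.14 and a middle 50% from -0.29 to 0.022. The cytosolic and mitochondrial genes had 22.2% and 21.1% past the threshold, both under the 42.1% of all tested genes. Their median absolute changes were 0.056 and 0.225. These lists were compared by counts and medians only.

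**Figure D5:**
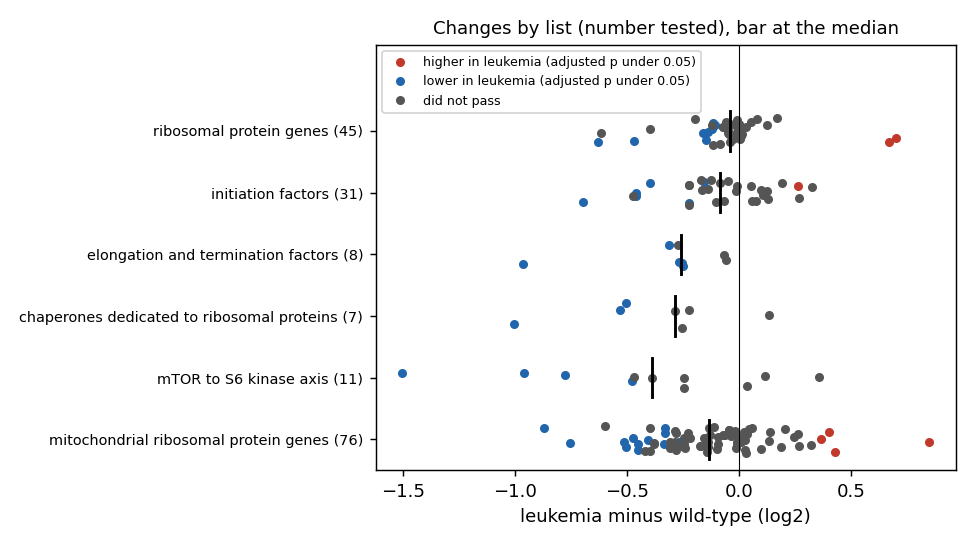
Change (horizontal axis, log2, leukemia minus wild-type) of each tested gene in 6 lists, with the number tested beside the name and a black bar at the median. The ribosomal protein genes crowd around -0.044 with few distant points, the chaperones and the mTOR axis have medians of -0.285 and -0.39, and the mitochondrial genes are spread more widely.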

How the data were processed

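The deposited table holds intensity values on a linear scale, from 3.31 to 18869, for 28821 probe sets. The authors made them with RMA, per the submitters' processing notes. Its version, background step and scaling are not given in the sources used here. The design had assumed log2 values. The linear values were therefore put on the log2 scale, without a pseudocount, before that test. The deposited array run records gave the hybridization date entry, from which the fluidics run (2) was taken, and the chip lot (1), and 0 columns were not mapped. Of a gene's probe sets with 1 symbol the brightest was used. Of the 46 probe sets chosen for the members, 14 carry a suffix for probes shared with other sequences. Of 13146 genes, 9715 at or above the 40th percentile of their array on at least 3 arrays were tested (limma 3.58.1, R 4.3.3; linear model, moderated with an intensity trend, 4 residual degrees of freedom, Benjamini-Hochberg, threshold 0.05). All 46 symbols matched RefSeq.

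Leukemia was compared with wild-type, 3 samples each, with no covariate. Nothing says the wild-type samples are separate animals, so the spread behind every p-value is that of these 6 samples and may be technical. With 6 arrays, their number limits the precision. The members, lists and tests were chosen with earlier results of these data known. Named were the 10 largest rises and falls past the threshold without overlap, paralog pairs, fixed functional groups, the non-subunit member, the brightest and dimmest member, and up to 2 genes per direction of other lists. Dimmer probe sets and the fit over probe sets were added after seeing the data. Rps9, Rps3, Rpl13a, Rpsa, Fau and Eef1a1 were named after their values were seen. On simulated data of 9715 genes, 200 of them changed, the leukemia comparison recovered 19.4% of genes changed by 0.5, 67.2% by 1 and 95.5% by 2 on the log2 scale, with 6 false calls. In the data 42.1% of tested genes passed, so the adjustment was less strict there. The median SE was 0.039 among members and 0.163 among all tested genes, so these rates are not those of the members. Replicate numbers did not pair the samples: same-numbered deviations correlated at -0.069, 0.050 and 0.030. Figures used matplotlib 3.10.9.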

Additional observations from a re-analysis of the deposited data

Results flagged for a closer look

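18S ribosomal RNA is the RNA partner of the small-subunit proteins. A control probe set for its 5' part lies outside the gene comparison and was singled out as a signal in data the comparison does not use: it was 3.13 higher on the log2 scale on the leukemia arrays (11.58 ± 0.67 in leukemia, 8.45 ± 0.85 in wild-type, SD, n = 3 each). It was highest on leukemia replicate 1, and its part in the ribosomal protein values was not tested. No other probe set for 18S ribosomal RNA is reported here. Whether this signal reflects the amount of ribosomal RNA in the cells was not tested.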

How the results depend on the processing

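The count of 2 ribosomal protein genes higher in leukemia was within 1.5 times (2 or 3) in all alternatives. The count lower was 8 and depended on the setting. It was 1 with centred arrays, 4 with cyclic loess, 2 without the intensity trend, 5 with the fluidics run as a block, and 2 to 8 with 1 array left out. The replicate block gave 2 lower genes, and the numbers share only a number. The median change was 0.035 on centring and -0.024 with cyclic loess, -0.052 to -0.032 with 1 array left out. The probe sets past the threshold were 9 to 23 with 1 array left out, against 21. Pair differences moved for Rpl22l1 minus Rpl22 with the mean of all probe sets (0.54), without shared-probe suffixes (0.33) and with the run block (0.30), and with the run block for Rpl7l1 minus Rpl7 (-1.09) and Rps27l minus Rps27 (-0.21). With 1 array left out the pairs lay at 0.16 to 0.26 (Rpl22l1), 0.17 to 0.70 (Rpl39l), -0.55 to -0.0065 (Rpl7l1) and -0.13 to -0.012 (Rps27l). Of the 10 genes past the threshold none changed sign. Of the 15 named genes that did not pass, 8 changed sign in some setting, at sizes up to 0.11, and 6 of 268 values passed. The causes were not tested. Low signal left Rpl39l and 7 member probe sets untested.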
